A study of Arabidopsis thaliana with 6 samples.

Results

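A set of 10 Arabidopsis genes that sense inorganic phosphate or move it across membranes were followed in rosette leaves grown with and without added nitric oxide (NO). The genes were named by locus and by no threshold on a measured value, although earlier results of these data were known when they were chosen: the SPX-domain genes SPX1 (AT5G20150), SPX2 (AT2G26660), SPX3 (AT2G45130) and SPX4 (AT5G15330), the transcription factor gene PHR1 (AT4G28610), the exporter genes PHO1 (AT3G23430) and PHO1;H1 (AT1G68740), the ubiquitin-conjugase gene PHO2 (AT2G33770), and the uptake carrier genes PHT1;1 (AT5G43350) and PHT1;4 (AT2G38940). All 10 of 10 had a probe on the array, with 14 of its 43603 gene probes between them, and all 10 passed the filter on dim signals, as did 18615 of the 25383 genes represented. No member passed that filter through 1 group alone, since each was well above background on all 6 arrays.

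Wild-type Arabidopsis thaliana plants stood in fumigation chambers on soil mixed with sand, at 20 °C by day and 16 °C by night, 80% humidity and daylight of 300 µmol/m2/s. The ambient group received ambient air, whose own NO content is not given in the sources used here, and the other group received ambient air mixed with 3 ppm NO, around the clock until harvest at 4 weeks of age. Total RNA of whole rosette leaves was labelled with Cy3 from 10 ng and put on one-colour Agilent arrays, 3 for each group, which the series describes as independent biological experiments. The labels give neither the accession of the wild type nor the number of plants behind an array. The p-values below weigh the difference between the groups against the spread of the 3 arrays within a group. Each group lay on a slide of its own, so that spread holds no difference between slides.

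Plants take up phosphate through PHT1 carriers at the plasma membrane and pass it to the xylem through PHO1. When phosphate is plentiful, SPX proteins that have bound inositol pyrophosphates hold the transcription factor PHR1 away from its targets, and PHO2 promotes the breakdown of PHO1 and of PHT1 carriers. When phosphate is scarce, PHR1 is released and induces a set of genes that includes SPX1, SPX3, PHO1;H1, genes of PHT1 carriers and the microRNA miR399, which lowers PHO2.

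In 3 ppm NO, transcripts of 7 of the 10 genes were higher, 1 was lower and 2 did not pass the test. SPX1 was 3.07-fold higher, PHT1;4 2.85-fold, PHO1;H1 2.66-fold and SPX3 2.23-fold, and SPX2 was 1.83-fold higher. PHO1 and PHO2 rose by less, at 1.19-fold and 1.14-fold, and SPX4 was the member that fell, at 1.37-fold lower. PHR1, the regulator itself, and PHT1;1 did not pass. Called in either direction were 8 of 10 members, against 58.2% of all 18615 genes tested with limma at an adjusted p of 0.05, so that a call in itself was common. Called higher were 25.8% of all genes, and called lower 32.4%. With a change of at least 2-fold, 4 of the 10 members were higher, against 4.99% of all genes tested. SPX3, among these 4, was at 0.92 on the log2 scale with normexp background correction, which is under 2-fold. The 2 groups of arrays did not overlap for 8 of the 10 members, 7 of them higher in NO and 1 lower. Over all genes tested the groups did not overlap for 66.7%, with 29.0% higher and 37.7% lower. The median log2 change was 0.56 over the 10 members and -0.05 over all genes tested. In tissue samples such as these, fewer cells that carry a transcript and less of it per cell cannot be told apart.

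All 3 ambient arrays lay on 1 slide and were scanned together, and all 3 NO arrays lay on another slide, so slide and treatment cannot be told apart in any value given here. Between 65.2% and 72% of the 61657 gene spots were well above background on an array, and no gene spot was saturated. Any 2 arrays of the same group differed by a median of 0.0864 to 0.0918 on the log2 scale, and any 2 of different groups by 0.266 to 0.285. Of 7 spike-in control probes above background on all arrays of a group, 7 were brighter on every NO array, by 49.4-fold for the brightest, relative to each array's 75th percentile. All 5 leaf markers rose, although with quantile normalization RCA and GLDP1 were at -0.13 and -0.11 on the log2 scale and did not pass, and all 5 xylem markers rose too. The summed xylem signal was 5.95 to 6.49 times the array's 75th percentile in ambient air and 11.3 to 13.4 times in NO. Of the 8 root markers, CASP1, EXPA7 and IRT1 were not well above background on any array, the 2 that could be tested rose, and the summed signal was 0.132 to 0.169 on ambient and 0.203 to 0.253 on NO arrays. Of these 2, MYB36 passed the filter on dim signals through the NO arrays alone, with 2 of 3 ambient arrays well above background. With normexp background correction MYB36 was at -0.03 on the log2 scale. Of 4 phloem markers 1 rose and 3 fell, and all 4 guard cell markers fell. The fall of the phloem marker SUC2 passed in 10 of 17 alternative settings, and was -0.04 on the log2 scale with the mean of its probes. That of the guard cell marker KAT1 passed in 6 of 17. Of 5 flower markers, 3 rose, and with normexp the log2 change of AP3, one of these, was -0.04 and did not pass. The rise of AP3 passed in 7 of 17 alternative settings, that of AP1 in 9 of 17 and that of PI in 17 of 17. Of 2 tested shoot meristem markers 1 rose, and no seed marker was well above background. The part of these markers in the results below was not tested.

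The SPX genes split into 3 that rose and 1 that fell. All levels below are log2 signals relative to the array's 75th percentile, so they serve to compare arrays for 1 probe and not one gene with another. SPX1, whose nuclear product restrains PHR1 and whose transcript is a standard marker of phosphate scarcity, had levels of 3.50, 3.46 and 3.60 in ambient air and 5.15, 5.06 and 5.21 in NO. The 2 groups lay far apart, and no array stood out within its group. The log2 change of SPX1 was 1.62 ± 0.06 (SE, n = 3 per group, adjusted p = 6.58e-06 in limma), and 284 of 18615 genes tested, or 1.53%, rose by more. SPX2, a close relative with the same role, had levels of 1.96, 1.87 and 1.92 in ambient air and 2.80, 2.83 and 2.73 in NO. Its groups did not overlap either, with a log2 change of 0.87 ± 0.05 (adjusted p = 2.91e-05 in limma), which was about as tight among arrays as that of SPX1 but smaller. SPX3, whose transcript is strongly induced when phosphate is scarce, had levels of -1.60, -1.63 and -1.54 in ambient air and -0.36, -0.46 and -0.48 in NO. Its log2 change of 1.15 ± 0.05 (adjusted p = 1.22e-05 in limma) lay between those of SPX1 and SPX2. With normexp SPX3 was at 0.92 and SPX2 at 0.94, so that order was not kept.

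SPX4, whose product also binds PHR1 but acts mainly outside the nucleus, went the other way. Its levels were -0.67, -0.50 and -0.47 in ambient air and -1.03, -0.99 and -1.01 in NO. The NO arrays were nearly equal, and all 3 lay below the lowest ambient array. The log2 change was -0.46 ± 0.06 (adjusted p = 0.00110 in limma), and 12% of all genes tested fell by more. The second probe of SPX4 was dim, with 1 of 3 ambient and 2 of 3 NO arrays well above background, and was not tested. With the mean of both probes the log2 change was -0.31 and did not pass (adjusted p = 0.0581 in limma).

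PHR1, a MYB-type transcription factor that binds the promoters of many genes induced by phosphate scarcity, had levels of 0.89, 0.91 and 0.88 in ambient air and 0.78, 0.73 and 0.95 in NO. Both groups overlapped, since NO replicate 3 lay above all ambient arrays while the other two lay below them. The log2 change was -0.07 ± 0.07 (adjusted p = 0.379 in limma), with a 95% confidence interval of -0.23 to 0.09, so that a change of the size seen for SPX4 or SPX1 lay outside the interval. Across the 17 alternative settings its log2 change ran from -0.14 to 0.02, and it passed in 0 of them, with adjusted p from 0.0758 to 0.828.

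**Figure D1:**
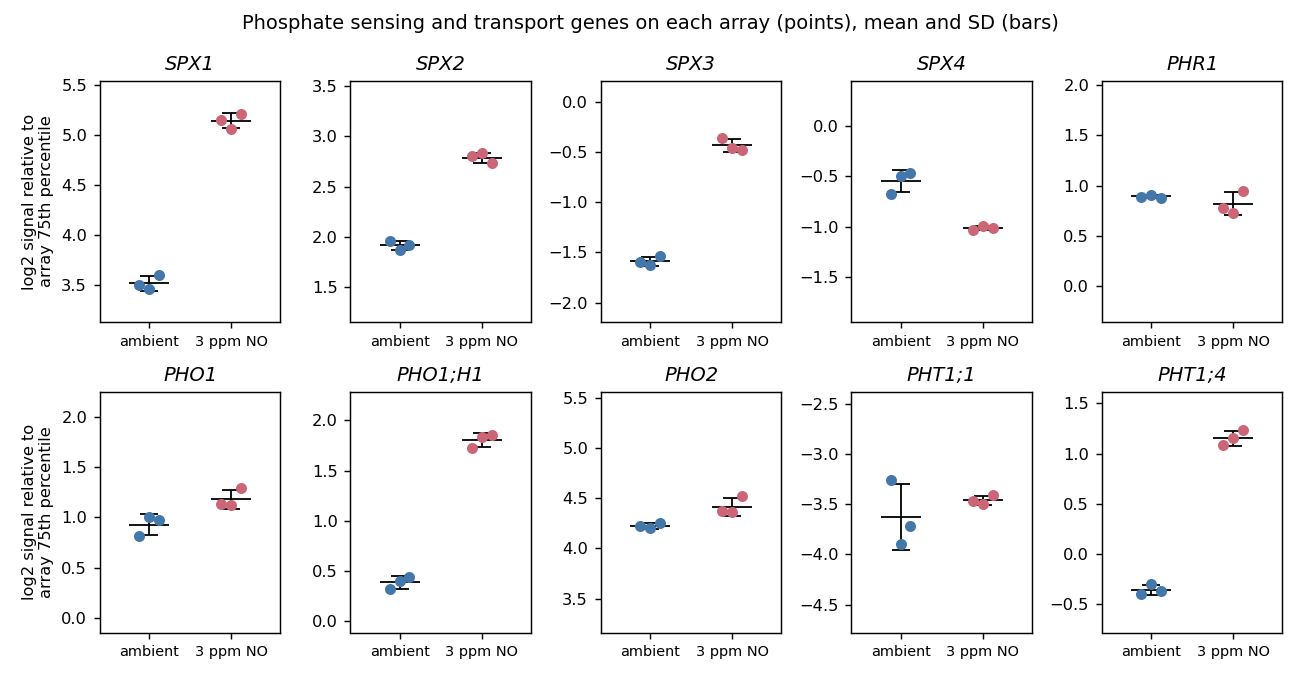
Log2 signal of each gene relative to the array's 75th percentile (vertical axis, same span in every panel) in ambient air and 3 ppm NO, with a point per array and the mean and SD of 3 arrays as bars. Points of the groups lie apart for 8 genes and overlap for PHR1 and PHT1;1, and SPX4 is the gene whose NO points lie lower.

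The exporter genes both rose, by unequal amounts. PHO1 encodes the protein that loads phosphate into the xylem and is best known from the root vasculature. Its levels were 0.81, 1.00 and 0.97 in ambient air and 1.13, 1.12 and 1.29 in NO. All 3 NO arrays lay above all 3 ambient arrays, by a narrow margin. The log2 change was 0.26 ± 0.07 (adjusted p = 0.0238 in limma), and its second probe gave 0.19 ± 0.06. It was lost without ambient replicate 1 (adjusted p = 0.0648 in limma) and without NO replicate 3 (adjusted p = 0.0679 in limma). PHO1;H1, a relative of PHO1 that also contributes to phosphate transfer and is induced by phosphate scarcity, had levels of 0.32, 0.40 and 0.44 in ambient air and 1.72, 1.83 and 1.85 in NO. Its groups were separated by much more than their spread. The log2 change was 1.41 ± 0.06 (adjusted p = 8.12e-06 in limma), and 2.14% of genes tested rose by more.

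PHO2, which encodes an E2 ubiquitin-conjugating enzyme that promotes breakdown of PHO1 and PHT1 carriers and whose transcript is cut by miR399, had levels of 4.22, 4.20 and 4.25 in ambient air and 4.37, 4.36 and 4.52 in NO. Groups of PHO2 did not overlap, although NO replicate 3 stood above the other two NO arrays. The log2 change was small, at 0.19 ± 0.06 (adjusted p = 0.0273 in limma), and the second probe of PHO2 gave 0.33 ± 0.08. The rise passed in 8 of 17 alternative settings, with adjusted p from 0.00415 to 0.688. It was 0.03 with quantile normalization, and it was lost without any 1 of ambient replicates 1, 2 and 3 (adjusted p = 0.0655, 0.0762 and 0.0547 in limma) and without NO replicate 3 (adjusted p = 0.0664 in limma).

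Of the uptake genes, PHT1;4 rose and PHT1;1 did not pass. Both encode proton-coupled phosphate carriers of the plasma membrane that are best known from roots. PHT1;4 had levels of -0.40, -0.30 and -0.37 in ambient air and 1.08, 1.15 and 1.23 in NO. Its groups lay far apart, and its log2 change was 1.51 ± 0.06 (adjusted p = 6.14e-06 in limma), exceeded by 1.79% of genes tested. The second probe of PHT1;4, a dimmer one, gave 1.53 ± 0.13. With normexp the brighter probe gave 1.48 and the dimmer one 1.15. PHT1;1 was dim, with levels of -3.26, -3.90 and -3.72 in ambient air and -3.47, -3.50 and -3.41 in NO. Ambient replicate 1 lay above all NO arrays and the other two ambient arrays lay below them. The log2 change of PHT1;1 was 0.16 ± 0.16 (adjusted p = 0.396 in limma), with a 95% confidence interval of -0.21 to 0.53. Without ambient replicate 1 it was 0.35 and passed (adjusted p = 0.0121 in limma). PHT1;1 stands next to PHT1;3 and PHT1;6 in the RefSeq gene table, with PHT1;2 beyond PHT1;3, and these 4 tandem genes are close in sequence. The value of PHT1;1 is uncertain for that reason, since signal shared among their probes was not examined. PHT1;2 was at -0.37 ± 0.22 and did not pass, and PHT1;3 and PHT1;6 were not well above background on any array.

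**Figure D2:**
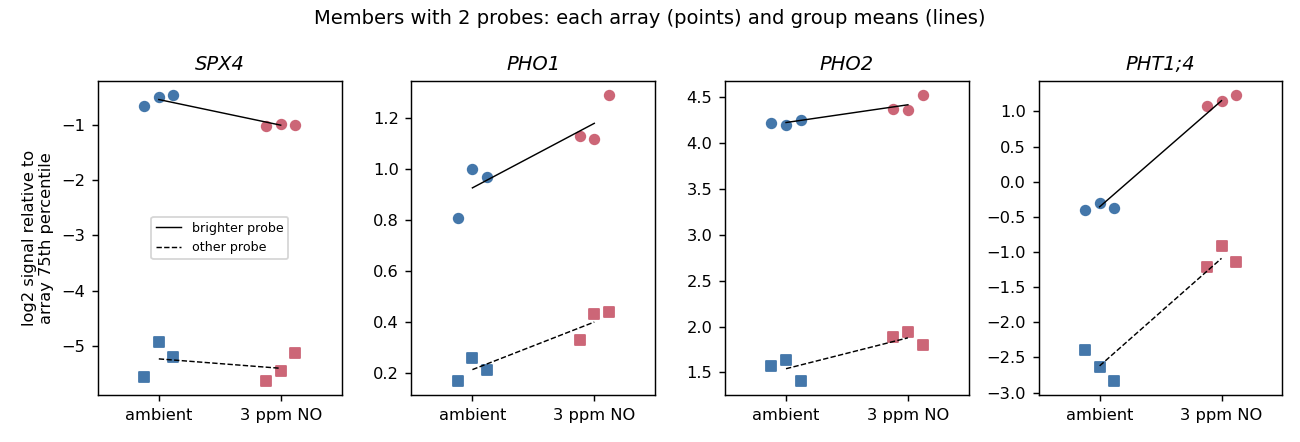
The 4 members with 2 probes, as log2 signal relative to the array's 75th percentile (vertical axis, different in each panel), with circles for the brighter probe, squares for the other, and lines between group means. Both probes go up for PHO1, PHO2 and PHT1;4, and for SPX4 the brighter probe falls by 0.46 while the dim one overlaps between the groups.

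Set side by side over the 6 arrays, the members ran from large rises through small changes to a fall, and were not sorted into groups. The measure was the root mean square difference of log2 levels after each gene was centred on its own mean. PHO1;H1 and PHT1;4 differed by 0.06, SPX1 and PHT1;4 by 0.1, and SPX1 and PHO1;H1 by 0.12. SPX2 and SPX3 differed by 0.15, and SPX2 lay 0.38 from SPX1 and 0.33 from PHO1. PHO1 and PHO2 differed by 0.07, whereas SPX1 and SPX4 were farthest apart, at 1.04. Among the other 18602 genes compared, those with a symbol whose levels lay closest to SPX1 were EXPA1, an expansin gene, at 0.0213, CKX4, a cytokinin oxidase gene, at 0.0355, and PGM, a plastid phosphoglucomutase gene of starch synthesis, at 0.0366. In all 54 genes lay within 0.1 of SPX1. For PHR1, whose levels hardly moved, 3583 genes lay within 0.1, led by FBX2 at 0.0146, EBF2 at 0.0207 and IBR10 at 0.021. These distances describe 6 arrays in 2 groups and mostly restate how much each gene differed between them.

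The wider phosphate response was read from 61 further loci, 60 of which had a probe and 54 of which could be tested. Of the 54, 26 rose, 17 fell and 11 did not pass, with a median log2 change of 0.15. Of 52 that were well above background on all 6 arrays, 25 rose and 16 fell. Among all genes tested, 25.8% were higher and 32.4% lower. The count of each role below is to be read against these shares, and nothing is drawn from the mixed counts of regulators, organelle carriers and relatives of PHO1. Of genes that release phosphate or replace phospholipids, 13 of 15 tested rose, 1 fell and 1 did not pass, with a median of 1.03. SRG3, a glycerophosphodiester phosphodiesterase gene, had ambient levels of 2.84 to 2.86 and NO levels of 5.47 to 5.74, and was 6.85-fold higher. The pyrophosphatase gene PS2 rose 5.08-fold, SQD2, which makes sulfolipid, 3.03-fold, and PAP17, an acid phosphatase gene, 2.68-fold. NPC4, a phospholipase C gene that phosphate scarcity is known to induce, was the gene called lower. It passed the filter on dim signals through the ambient arrays alone, with 2 of 3 NO arrays well above background, so no size is given. Among genes well above background on all 6 arrays, 13 of 14 of this list rose and 0 fell (limma).

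Among the regulators were non-coding transcripts that capture miR399. IPS1 and AT5G03545, which the gene table also calls AT4, both carry a decoy site for miR399, the microRNA that cuts PHO2. AT5G03545 had levels of 2.15, 2.09 and 2.13 in ambient air and 5.59, 5.59 and 5.55 in NO, and rose 10.9-fold, a log2 change of 3.45 ± 0.05 with an adjusted p of 3.47e-07 in limma. IPS1 had levels of -5.59, -5.76 and -5.07 in ambient air, where 1 of 3 arrays was well above background, and -1.76, -1.65 and -1.73 in NO. The NO arrays of AT5G03545 lay far above all ambient arrays. No size is given for the rise of IPS1, since it passed the filter on dim signals through the NO arrays alone and its fitted log2 change fell to 1.88 with normexp.

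Of the 15 regulators tested, 5 rose, 6 fell and 4 did not pass, with a median log2 change of -0.10. IPS1 is among the 5, and of 14 regulators well above background on all 6 arrays, 4 rose and 6 fell. PHF1, which helps PHT1 carriers leave the endoplasmic reticulum, was 1.39-fold higher. The locus AT5G15070, to which the gene table gives no symbol, rose by 0.84 ± 0.07, or 0.44 with normexp. AT3G01310, a homolog of the yeast inositol pyrophosphate kinase Vip1 by that table, was 1.14-fold higher, and passed in 8 of 17 alternative settings. LPR1, a ferroxidase gene of the root response to low phosphate, fell by 1.17 ± 0.10 on the log2 scale, or by 0.67 with the mean of its probes. The remaining 5 that fell were named after their values were seen. Among these, WRKY75, a transcription factor gene induced by phosphate scarcity, was 2.47-fold lower, or at -0.74 on the log2 scale with normexp, and WRKY6, a repressor of PHO1, was at -0.45. PHL1, the closest relative of PHR1 in the list, was at -0.39, NLA, a ubiquitin ligase gene that acts on PHT1 carriers, at -0.19, and PDR2, a P5-type ATPase gene that works with LPR1, at -0.22. NLA passed in 11 of 17 alternative settings and PDR2 in 9 of 17.

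**Figure D3:**
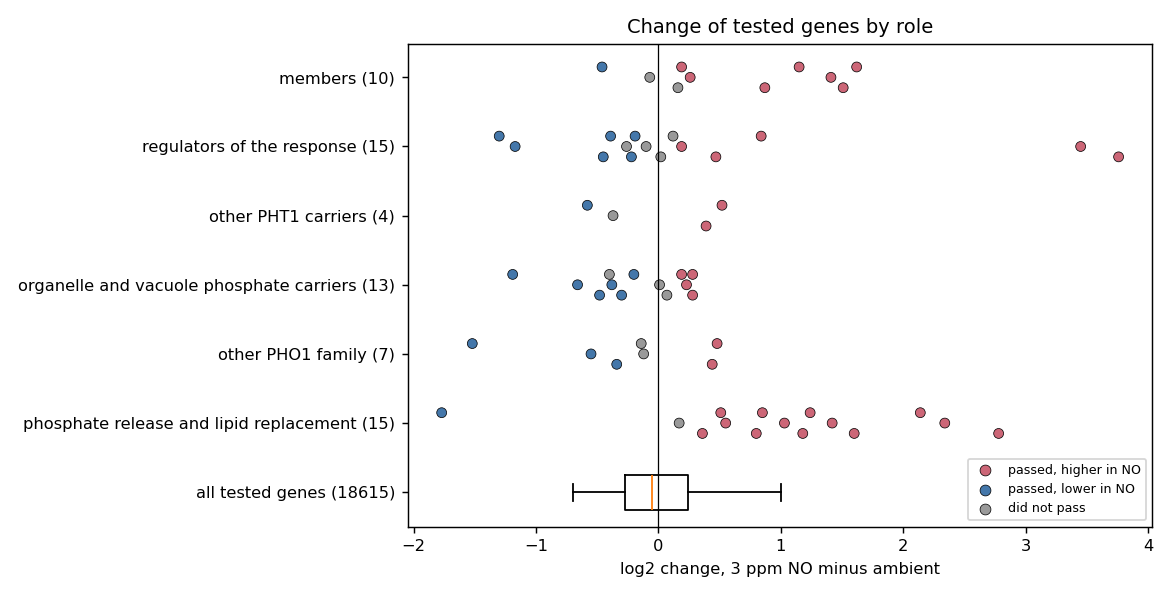
Log2 change in 3 ppm NO over ambient air (horizontal axis) of each tested gene by role, with the number tested in parentheses, coloured by the limma call. The box shows the quartiles of all 18615 genes tested with whiskers from their 5th to their 95th percentile, and 13 of 15 genes of phosphate release and lipid replacement passed as higher.

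Other carriers of phosphate included genes that rose and genes that fell. Of 4 tested PHT1 genes beside the members, PHT1;8 rose by 0.39 ± 0.05 and PHT1;7 by 0.52 ± 0.18 (log2), while PHT1;5, a carrier known for moving phosphate between source and sink organs, was 1.49-fold lower. With normexp PHT1;8 was at 0.08 and PHT1;7 at 0.12, and neither passed. With the mean of its 2 probes PHT1;8 was at 0.09 and did not pass either (adjusted p = 0.777 in limma). Of 13 tested carriers of organelles and the vacuole, 4 rose, 6 fell and 3 did not pass, with a median of -0.20. The number that rose was 1 without ambient replicate 2, without NO replicate 1, with scaling to the median and with no filter, and 0 with the replicate block by source-name numbers. PHT3;2, a mitochondrial phosphate carrier gene, had ambient levels of -3.18 to -2.92 and NO levels of -4.35 to -4.06, and was 2.28-fold lower, or at -0.68 on the log2 scale with normexp. PHT3;3, its mitochondrial relative, was 1.58-fold lower, or at -0.35 on the log2 scale with the mean of its probes. PHT4;4, which transports ascorbate into chloroplasts, was 1.40-fold lower, and PHT4;5, a plastid carrier gene, was at -0.38 ± 0.08 on the log2 scale. Those that rose were PHT4;3 (0.28 on the log2 scale), PHT2;1 (0.19), PHT4;2 (0.28) and AT4G22990 (0.23), a locus to which the gene table gives no symbol. With quantile normalization PHT2;1, a chloroplast phosphate carrier gene, was at 0.03 and PHT4;2 at 0.18, and neither passed.

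Further loci listed as relatives of PHO1 were 9, of which 8 had a probe and 7 could be tested, and 7 carry no family name in the gene table. Here 2 rose, 3 fell and 2 did not pass. The largest difference was that of AT1G69480, with levels of 0.64, 0.69 and 0.69 in ambient air and -0.73, -0.82 and -0.99 in NO. It was 2.87-fold lower (log2 change -1.52 ± 0.07, adjusted p = 1.42e-05 in limma), the opposite of PHO1;H1, and ran from -1.58 to -1.45 over 17 alternative settings. PHO1;H3 was 1.46-fold lower, while AT2G03240 and AT1G26730 were 1.39-fold and 1.36-fold higher.

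**Figure D4:**
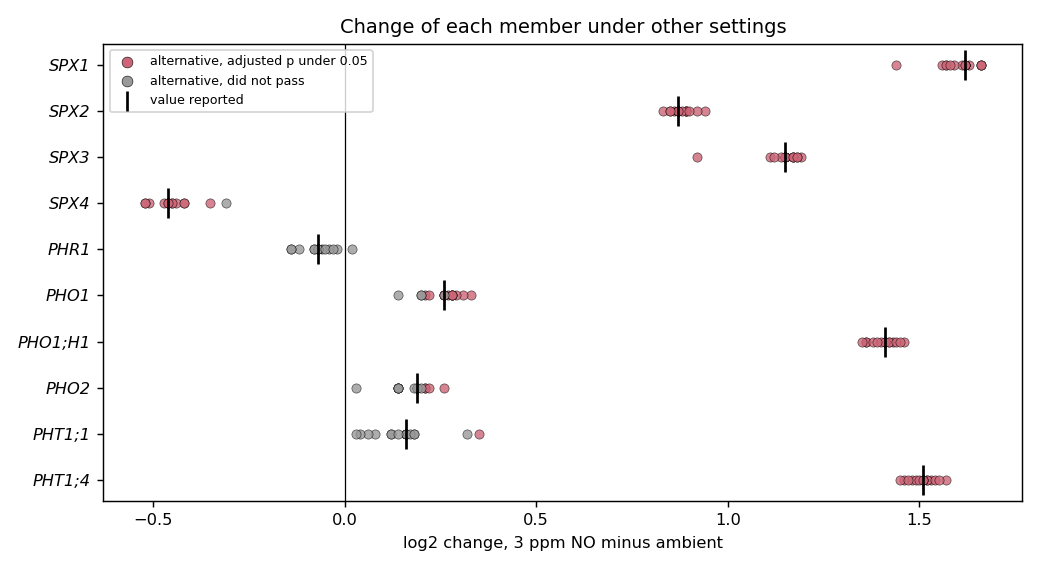
Log2 change of each member (horizontal axis) as reported (black bar) and under 17 other settings of background correction, normalization, filter, probe choice, pairing and left-out arrays (points, red where the adjusted p was under 0.05). Points of SPX1, SPX2, SPX3, PHO1;H1 and PHT1;4 are all red, from 0.83 upward for SPX2 and from 0.92 upward for the others, and those of PHR1 are all grey.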

How the data were processed

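The authors deposited scanner output with linear, background-corrected spot intensity. Feature Extraction 10.7.3.1 made it per the file headers, while the submitters' processing notes name 10.5. Their series matrix, used as an alternative, holds log2 values deposited with each probe centred near 0; scale and centring are not given in the sources used here.

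Values here were log2 of the processed signal minus the 75th percentile of each array. Outlier spots were left out, spots of 1 probe averaged, and 34285 of 43603 probes matched to 1 locus each through RefSeq transcripts (TAIR10.1), 9318 to none. No coordinates are given, because the file headers name another build. The probe of highest mean signal stood for a gene, and a gene was tested if 1 or both groups had it well above background in all 3 replicates, with limma 3.58.1 in R 4.3.3 (two-sided, Benjamini-Hochberg over 18615 genes, threshold 0.05). Normexp (offset 50) used the median spot signal, as the files have no mean signal column. The 17 alternatives changed background correction, normalization, filter, probe choice, value source, variance model, pairing or left out 1 array. The number of arrays limits the precision.

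Members, lists and rules for names were chosen with earlier results of these data known. The rule named all members, up to 4 genes per role with the smallest adjusted p, those that passed against their role's majority, and the 3 genes nearest to SPX1 and to PHR1. Titles number both groups 1 to 3 and source names number the NO arrays 2 to 4; title numbers are used.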

Additional observations from a re-analysis of the deposited data

Results flagged for a closer look

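Spike-in control spots were much brighter on the NO slide than on the ambient slide. They are not part of the 75th percentile, which was taken over gene spots, but they enter the normexp fit, which was made on all spots. The brightest spike-in probe was 49.4-fold brighter relative to each array's 75th percentile, with raw signals of 984 to 1220 in ambient air and 48200 to 74200 in NO. The cause was not tested. Groups of 3 arrays were not tested for outlying samples.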

How the results depend on the processing

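SPX1, SPX2, SPX3, PHO1;H1 and PHT1;4 rose and passed in 17 of 17 alternatives, and SPX4 fell and passed in 16 of 17. Between 5 and 7 members were called higher over all alternatives, those without 1 array included, and 1 was called lower, except with the mean over probes, where 0 members were lower. Of the wider list, 20 to 26 genes were called higher and 14 to 18 lower, out of 54 tested, or 60 with no filter and 52 with all 6 arrays above background. The main fit was unpaired because titles and source names number the NO arrays differently. Deviations of same-numbered arrays correlated at -0.08, -0.04 and 0.05 by title and at 0.02 and -0.12 by source name. With 3 arrays per group these values cannot decide whether the samples were paired. Over all genes, the replicate block by source-name numbers lowered the calls of lower genes from 6023 to 3667. In that block ambient replicate 1 and NO replicate 3 had no partner. With it PHO1 was at 0.14 (adjusted p = 0.217 in limma) and PHO2 at 0.14 (adjusted p = 0.225 in limma). With the replicate block by title numbers 7 members were higher and 1 lower, and the counts were 4557 higher and 5492 lower over all genes. Without the filter, PHO1 and PHO2 had adjusted p of 0.0569 and 0.0585 in limma, and PHO2 also did not pass with scaling to the median (0.0767) or cyclic loess (0.0754). Slide could not be fitted as a block.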

Other observations

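Before scaling, NO replicate 2 was brighter than the other arrays, with a 75th percentile of 1320 against 715 to 876. The unscaled signals of SPX4 were 551, 590 and 598 in ambient air and 351, 665 and 419 in NO, so without scaling the groups overlapped. Those of SPX1 were 9170 to 10100 and 25300 to 44100, and did not overlap.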
